A study of Mus musculus with 12 samples.

Results

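Livers labelled as double knockout for E2f7 and E2f8 (DKO) were compared with wild-type livers, 4 libraries of each, which together make 8 of the 12 libraries of the series. They were chosen by the title and the genotype in the labels. The other 4 libraries are tumors of DKO mice. They entered the choice of genes tested by their level and the estimate of the spread, and in alternatives the scaling. Polyadenylated RNA of each liver was sequenced on the SOLiD platform. Animal codes in the deposited names differ between all 8 livers, so the replicates are separate animals by these codes. Each DKO code returns in 1 of the DKO tumors, so the DKO genotype and the bearing of a tumor cannot be told apart in this comparison. The age, sex, strain, deleting Cre line and deleted part of each gene are not given here. Reads of the Y-linked genes Ddx3y and Eif2s3y were present in all 8 libraries. The names also carry a tag, which is L02 for all 4 DKO livers and for wild-type livers 1 and 2, and L03 for wild-type livers 3 and 4. The labels do not say what it stands for, and each result was also set against the 2 wild-type livers tagged L02.

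E2F7 and E2F8 are the atypical members of the E2F family. They bind DNA through a pair of DNA-binding domains without a DP partner and repress genes that the activating E2Fs switch on for DNA replication and cell division. In the liver they are known for their part in hepatocyte polyploidization, the process by which hepatocytes replicate their DNA without dividing.

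Depth ranged from 9.274 to 12.323 M reads (M, mega) in the DKO livers and from 7.985 to 14.234 M in the wild-type livers. Levels are RPKM, the reads of a gene divided by its exon length in kb and by the library's M reads, and 1 read in 2 kb of exon corresponds to 0.0351 to 0.0626 RPKM. Markers of hepatocyte identity were abundant throughout, with 34 of them summing to 104500 to 157800 RPKM in DKO livers and 94180 to 131800 in wild-type livers. A list of 21 markers of pancreas, fat, muscle and gut summed to 12.2 to 23.6 RPKM in DKO livers and 24.5 to 59.0 in wild-type livers, with Prss1, Ela3 and Amy2 at 0 in all 8. In DKO liver 4 the 10 most abundant genes took 36.0% of the reads, against 19.8 to 23.6% in the others. In bulk tissue, fewer cells of a type and less RNA per cell cannot be told apart.

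The promoters of E2F-controlled genes carry short elements with a run of T followed by G and C. The letters TTTCCCGC, TTTCGCGC, TTTGGCGC and TTTGCCGC were searched on both strands of RefSeq promoter windows of the build GRCm38.p6. They occurred in 744 of 32851 windows (2.26%). Shown here are 70-base stretches of 4 promoters that hold them, for E2f7 itself and for 3 genes of the replication-licensing machinery whose levels are given next. Each is written 5′ to 3′ on the strand of its gene, with the matched letters in capitals. The first is chr10:110745209-110745278 (plus strand), the second chr8:75109324-75109393 (plus), the third chr1:128359776-128359845 (minus) and the last chr11:98907981-98908050 (plus). In Mcm5 and Mcm6, which encode subunits of the replicative helicase, a pair of matches on opposite strands overlaps.
E2f7: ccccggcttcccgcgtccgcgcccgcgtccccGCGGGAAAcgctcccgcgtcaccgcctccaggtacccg
Mcm5: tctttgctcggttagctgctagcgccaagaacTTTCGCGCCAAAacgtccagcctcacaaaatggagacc
Mcm6: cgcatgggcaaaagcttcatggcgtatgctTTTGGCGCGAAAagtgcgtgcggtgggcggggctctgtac
Cdc6: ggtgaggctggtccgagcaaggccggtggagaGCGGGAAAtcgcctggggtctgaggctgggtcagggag

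Both targeted genes had reads in every liver. E2f7 (mm9 chr10:110182520-110224439, plus strand) had 14, 22, 16 and 14 reads in DKO livers 1 to 4 and 6, 8, 13 and 8 in wild-type livers 1 to 4. All 4 DKO values lay above all 4 wild-type values after scaling to depth, at 0.281 ± 0.084 against 0.138 ± 0.043 RPKM (mean ± SD, n = 4 each). The difference on the log2(RPKM + 1) scale was 0.17 (two-sided exact permutation p = 0.0286, the smallest that 70 splits allow). It was not past 0.05 with median-of-ratios scaling (exact permutation p = 0.0571) or quantile normalization (0.314), nor without DKO liver 2 or 4 or wild-type liver 1, 2 or 4 (0.0571 each). E2f8 (chr7:56121833-56136369, minus strand) was at 8.07, 20.8, 7.36 and 2.80 RPKM in DKO livers and at 4.30, 1.66, 2.26 and 2.57 in wild-type livers. DKO livers 1 to 3 lay above the wild-type range and DKO liver 4 within it (log2 difference 1.32, exact permutation p = 0.0571). Without DKO liver 4 the difference was 1.72 (exact permutation p = 0.0286). Since RPKM covers the whole transcript and the sources do not name the deleted exons, these levels cannot check the genotype.

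Of 16 tested members of the E2F and RB family, 3 lay lower in every DKO liver than in any wild-type liver: Rbl2, Lin52 and Tfdp2. A gene in which all 4 DKO livers lie below all 4 wild-type livers is called non-overlapping, which held downward for 1.96% and upward for 5.62% of the 11351 genes tested. These shares are the background for each such count below, and they depend on the scaling. Rbl2, the RB-related pocket protein p130 of resting cells, was at 6.55, 4.94, 5.79 and 3.13 RPKM in DKO livers against 6.91, 7.89, 7.86 and 6.92 (log2 difference −0.49, SE 0.20, limma adjusted p = 0.365). Its annotated span overlaps that of Aktip on the opposite strand, so its reads are uncertain. Lin52, a subunit of the DREAM and MuvB complexes, differed by −0.38, and Tfdp2, a DP partner of the classical E2Fs, by −0.35. The differences against the wild-type livers tagged L02 were −0.49 for Rbl2, −0.30 for Lin52 and −0.26 for Tfdp2. The activator E2f1 overlapped, at 1.31, 2.63, 6.70 and 2.72 RPKM in DKO livers and 0.560, 2.95, 1.51 and 1.63 in wild-type livers.

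Genes of DNA replication were highest in DKO liver 3, and among the wild type in liver 2. Mcm6 was at 2.88, 3.26, 15.6 and 7.32 RPKM in DKO livers and at 2.07, 9.90, 5.05 and 3.44 in wild-type livers. Mcm5 was at 1.23, 1.46, 12.1 and 4.95 against 0.622, 7.12, 2.07 and 1.91. Cdc6, which loads the helicase onto origins, was at 0.162, 0.260, 1.32 and 0.679 against 0.0272, 0.729, 0.402 and 0.290. In all 3 genes the groups overlapped, DKO liver 3 was the highest of the 8 and wild-type liver 2 the highest of the wild type. The median log2 difference of the 55 tested E2F targets and replication genes was 0.17, 44 of them were above 0, and none was non-overlapping. The same median was 0.08 over all genes tested, of which 60.5% were above 0 and 39.5% below 0. By liver, the list stood at −0.23, −0.23, 0.81 and 0.21 in DKO livers 1 to 4 relative to the wild-type mean, and at 0.32 in wild-type liver 2. Without DKO liver 3 its median was −0.07 and without wild-type liver 1 it was 0.06, while without DKO liver 1, DKO liver 2 or wild-type liver 2 it was 0.30, 0.30 or 0.33. The member with the highest mean, Mcm10, a replication-initiation factor, was lower in the DKO group, at 17.3 ± 8.66 against 32.1 ± 10.7 RPKM (n = 4 each), with overlap (−0.92, limma adjusted p = 0.378).

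Genes of mitosis had low levels, and 6 of 41 did not pass the filter on level, which genes high in DKO tissue pass more easily. All 35 tested had log2 differences above 0, with a median of 0.41. With median-of-ratios scaling 34 of them were above 0. The list stood at 0.07, 0.02, 0.97 and 0.49 in DKO livers 1 to 4, and at −0.12, 0.10, 0.11 and −0.11 in wild-type livers 1 to 4. DKO livers 1 and 2 thus lay within the wild-type range. The list median was 0.21 without DKO liver 3. Of the 35 tested, 5 were non-overlapping, all higher in DKO livers (14.3%, beside 5.62% of all genes). Cks2, which binds cyclin-dependent kinases, was at 3.22, 1.29, 1.75 and 1.24 RPKM in DKO livers against 1.08, 0.900, 0.849 and 0.405 (0.64, SE 0.20, adjusted p = 0.292). Anln, the cytokinesis protein anillin, was at 0.575, 0.498, 1.34 and 0.820 against 0.435, 0.390, 0.292 and 0.107 (0.45, adjusted p = 0.387). Kif2c, a microtubule-depolymerizing kinesin, was at 0.362, 0.436, 0.828 and 0.471 against 0.0913, 0.142, 0.337 and 0.205 (0.35, adjusted p = 0.378). Among the livers only DKO liver 3 reached 0.5 RPKM, so Kif2c passed the filter on level through the tumors too. Bub1b of the spindle checkpoint and the chromosome kinesin Kif4 differed by 0.41 and 0.29. Against the L02 wild-type livers the list median was 0.36.

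Among 15 tested cyclins, kinases and inhibitors of G1 none was non-overlapping, and the median was 0.07 (−0.10 with quantile normalization). Without 1 liver it ranged from 0.02 (DKO liver 3) to 0.15 (wild-type liver 3). Cyclin D1 (Ccnd1) ranged from 6.23 to 76.8 RPKM over the DKO livers and from 14.4 to 48.2 over the wild-type livers. Cdkn1a, the p53-induced kinase inhibitor p21, was at 11.3, 7.88, 29.0 and 4.73 RPKM in DKO livers and 1.75, 6.77, 3.04 and 1.52 in wild-type livers, overlapping through DKO liver 4 (1.61, adjusted p = 0.291). Of 25 p53 targets 1 was non-overlapping upward (4.0%, beside 5.62% of all genes), Gadd45b, a stress-induced growth-arrest gene. It was at 3.46, 0.709, 2.76 and 0.852 RPKM against 0.693, 0.678, 0.665 and 0.389, so DKO liver 2 lay just above the wild type. The median of the p53 targets was 0.18. It was −0.04 without DKO liver 3, 0.08 and 0.07 without wild-type livers 1 and 4, and 0.28 without wild-type liver 2. Liver cancer and fetal liver markers had a median of 0.52 over 16 tested, with 15 above 0. Without DKO liver 3 the median was 0.32. By liver they stood at 0.09, 0.22, 1.09 and 0.47 in DKO livers 1 to 4, and at −0.28, −0.09, 0.34 and 0.06 in wild-type livers 1 to 4. DKO livers 1 and 2 thus lay within the wild-type range. Of the 16, 1 was non-overlapping upward (6.25%, near the 5.62% of all genes). The non-overlapping member, Sox9, a transcription factor of bile duct cells, was at 3.27, 2.27, 3.70 and 2.30 RPKM against 1.15, 1.38, 1.14 and 1.30 (0.78, SE 0.27, adjusted p = 0.315).

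Over all 11351 genes, limma called 0 higher and 0 lower in DKO liver at an adjusted p below 0.05 (0.0% of genes in either direction). At an unadjusted p below 0.05, 1040 genes were higher (9.16%) and 368 lower (3.24%). With voom on the reads recovered from the values the count called was also 0. With median-of-ratios scaling 939 were higher and 1134 lower at an unadjusted p below 0.05, and with quantile normalization 850 and 1000, so the excess of higher genes depends on the scaling. It also depended on single livers, with 551 and 540 higher without DKO liver 3 and wild-type liver 4, and 178 and 190 lower without DKO liver 4 and wild-type liver 4. Of the 861 non-overlapping genes (7.59%), 638 were higher in DKO livers and 223 lower. With median-of-ratios scaling these were 487 and 572, with quantile normalization 427 and 558, and without DKO liver 3 687 and 629. Non-overlap is easier to reach with fewer livers. Median-of-ratios scaling moved the median log2 difference of all genes from 0.08 to −0.01. The smallest adjusted p of 0.076 belonged to Tubb2a and Shank2.

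Tubb2a, a beta-tubulin of microtubules (chr13:34166146-34169854), was at 40.8, 40.05, 31.1 and 21.8 RPKM in DKO livers and 6.48, 7.63, 9.23 and 9.04 in wild-type livers. The groups were far apart, 33.4 ± 8.92 against 8.10 ± 1.29 (n = 4 each), a ratio of means of 4.13 and a log2 difference of 1.89 (SE 0.29, limma adjusted p = 0.076). Against the L02 wild-type livers the difference was 2.06. Tubb2a passed the threshold when the 8 livers were fitted alone (adjusted p = 0.0323), without DKO liver 4 (0.0456) and without the third DKO tumor (0.0474). Shank2, a scaffold protein, was lower in level, at 3.69, 2.33, 2.83 and 2.68 RPKM against 0.911, 1.23, 1.01 and 0.772 (0.96, SE 0.15). It was named for its adjusted p after the values were seen.

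**Figure D1:**
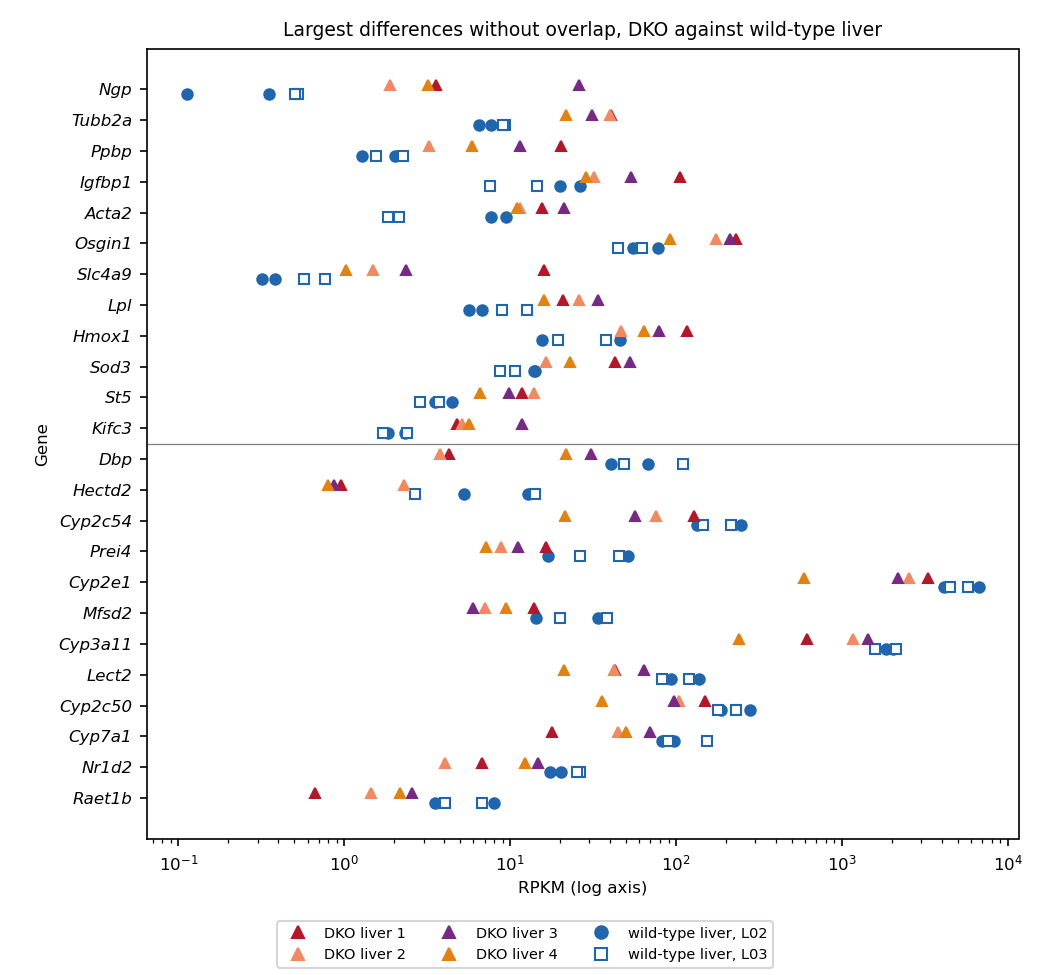
RPKM on a log axis of the 12 non-overlapping genes with the largest log2 differences in each direction, 1 point per liver; triangles are DKO livers, filled circles wild-type livers tagged L02 and open squares those tagged L03. In every row the triangles lie on 1 side of the wild-type points, and in Ngp and Slc4a9 a single DKO liver extends the range.

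Among the 12 largest upward differences, Osgin1, an oxidative-stress-induced growth inhibitor (chr8:121961061-121970155), was at 229.9, 173, 211 and 92.0 RPKM in DKO livers against 55.1, 78.2, 44.4 and 62.7. DKO liver 4 was the nearest to the wild type (1.49, SE 0.27, adjusted p = 0.166), and without it the adjusted p was 0.0129. Hmox1, the heme-degrading oxygenase (chr8:77617520-77624483), was at 116, 46.2, 79.1 and 63.8 against 15.5, 46.1, 37.5 and 19.3, so DKO liver 2 and wild-type liver 2 nearly met (1.39, adjusted p = 0.285). The extracellular superoxide dismutase Sod3 was at 42.5, 16.4, 52.5 and 22.8 against 14.02, 13.8, 10.7 and 8.62 (1.32, adjusted p = 0.357). Of 37 tested genes of conjugation, glutathione and NRF2, 10 were above 0, 2 were non-overlapping upward (5.41%, beside 5.62% of all genes) and the median was −0.17. It was 0.06 without DKO liver 4 and −0.08 without wild-type liver 1. Besides Hmox1 the upward member was Mgst3, a glutathione transferase (0.77), and the glucuronosyltransferase Ugt2b36 was non-overlapping downward (−0.68). Ugt2b36 has near-identical relatives, so its level is uncertain.

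Lpl, the lipase that releases fatty acids from lipoproteins (chr8:71404453-71430830), was at 20.9, 25.9, 34.01 and 15.9 RPKM in DKO livers against 5.63, 6.75, 12.6 and 8.90. All 4 DKO livers lay above, and the difference was wider against the L02 wild-type livers (1.76) than against L03 (1.07; 1.41 in all, SE 0.31, adjusted p = 0.226). Igfbp1, which binds insulin-like growth factors (chr11:7097789-7102548), was at 105, 32.0, 53.8 and 28.7 against 26.3, 20.1, 14.6 and 7.58. Here the wild-type livers tagged L02 were the higher pair, and the difference was 1.03 against L02 and 2.08 against L03. Acta2, smooth muscle actin (chr19:34315580-34329825), showed this most, at 15.5, 11.4, 21.1 and 10.96 RPKM in DKO livers, 7.67 and 9.43 in the L02 pair and 1.84 and 2.13 in the L03 pair. Its log2 difference was 0.68 against L02 and 2.35 against L03, beside 1.52 over all wild-type livers.

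The other upward genes were Ngp, a neutrophil granule protein (2.19), Ppbp, a platelet chemokine precursor (1.77, at 3.23 to 20.3 RPKM against 1.28 to 2.26), and the anion exchanger relative Slc4a9 (1.45). Slc4a9 was at 15.9, 1.49, 2.34 and 1.03 RPKM in DKO livers against 0.383, 0.318, 0.571 and 0.763. DKO liver 1 alone carried most of its group mean. St5, a regulator of Rab GTPases, was at 11.8, 13.8, 9.88 and 6.61 against 3.50, 4.46, 3.70 and 2.84 (1.29, SE 0.23, adjusted p = 0.166). The minus-end-directed kinesin gene Kifc3 was at 4.75, 5.12, 11.7 and 5.64 against 1.84, 2.32, 2.39 and 1.72 (1.28, adjusted p = 0.226). The reads of Kifc3 are uncertain, since the counting is not stated to use strand.

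**Figure D2:**
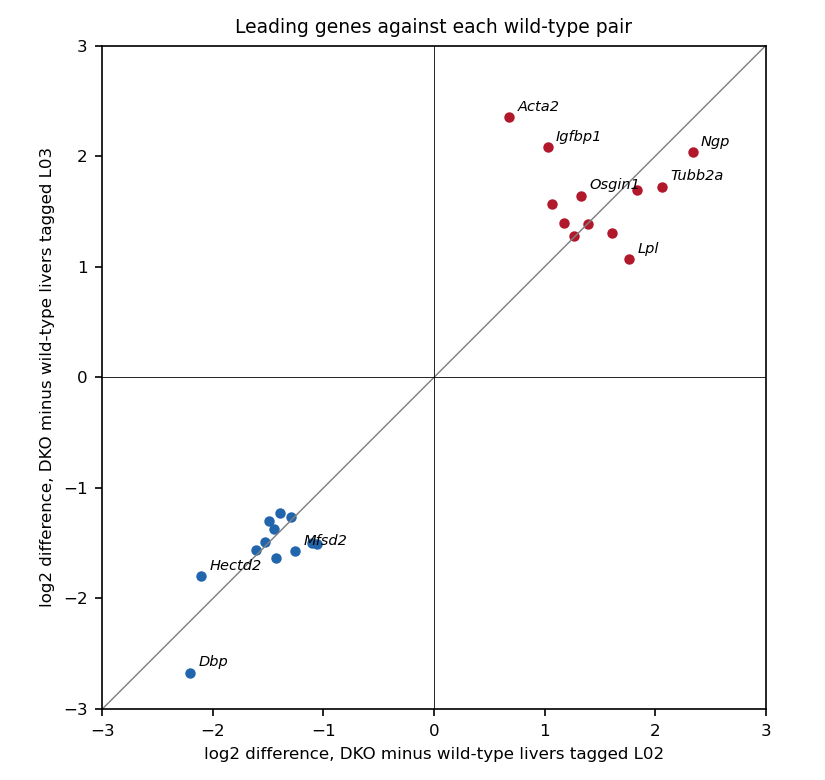
Log2 difference of the 24 leading genes against the wild-type livers tagged L02 (x axis) and L03 (y axis), with the line of equality; red points are higher and blue points lower in DKO liver. All were chosen as non-overlapping, so none could change sign between the axes. Acta2 (0.68 against 2.35) and Igfbp1 (1.03 against 2.08) lie farthest above the line.

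Across the 638 genes higher in all DKO livers, the median log2 difference was 0.44 against the L02 wild-type livers and 0.50 against L03. For the 223 lower genes it was −0.44 and −0.55. The difference was smaller against L02 for 393 of the 638 and 159 of the 223. In 149 and 70 genes, respectively, both L02 wild-type livers were nearer to the DKO livers than both L03 ones. With only the L02 wild-type livers limma called 0 genes, and 423 were higher and 111 lower at an unadjusted p below 0.05.

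Among the largest downward differences, several are known from hepatocytes around the central vein. Cyp2e1, the ethanol-oxidizing P450 (chr7:147949730-147960875), was at 3314, 2527, 2175 and 588 RPKM in DKO livers against 6677, 4096, 4482 and 5729. DKO liver 4 was far below the rest (−1.51, SE 0.84, limma adjusted p = 0.469). Lect2, a secreted factor (chr13:56643827-56649860), was at 43.0, 42.3, 63.8 and 21.0 against 138, 93.3, 81.7 and 119.9 (−1.40, adjusted p = 0.426). Cyp2c50 was at 150.2, 104, 96.9 and 35.8 against 279, 185, 179 and 228 (−1.31), and its neighbour Cyp2c54 at 127, 75.5, 56.5 and 21.5 against 245, 134, 145 and 213 (−1.59). These P450 genes belong to a cluster of close copies, so the split of reads between them is uncertain.

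The pericentral list had 24 tested members, of which 3 were above 0 and 4 non-overlapping downward (16.7%, beside 1.96% of all genes). Its median was −0.43, and −0.42 against the L02 wild-type livers. All 4 DKO livers were below the wild-type mean, at −0.31, −0.46, −0.10 and −0.92, and without DKO liver 4 the median was −0.27. Wild-type livers 1 to 4 stood at 0.21, −0.21, −0.05 and 0.05, so wild-type liver 2 lay below DKO liver 3. The fourth non-overlapping member was Oat, ornithine aminotransferase (−1.19). Glutamine synthetase (Glul), confined in normal liver to the last hepatocytes before the central vein, overlapped at 110 to 199.8 RPKM against 144 to 235. Periportal genes went the other way, with 19 of 23 above 0 and a median of 0.29. Their median was 0.18 with median-of-ratios scaling, which left 15 above 0, 0.19 without wild-type liver 3 and 0.50 without DKO liver 3. Asl, the urea cycle enzyme argininosuccinate lyase, was at 439.9, 349, 246 and 240.0 RPKM against 197, 239.8, 199.9 and 186, so that DKO liver 4 and wild-type liver 2 nearly met (0.59, adjusted p = 0.417). The other non-overlapping periportal gene was Sox9. The 2 made 8.7% of the list, beside 5.62% of all genes upward.

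Of 47 tested genes of cytochrome P450 and phase I, 20 were above 0 and the median was −0.26 (−0.39 without DKO liver 1). Non-overlapping downward were 4 (8.51%, beside 1.96% of all genes). The 4 were Cyp2e1, Cyp2c50, Cyp2c54 and Cyp3a11, a major drug-metabolizing P450 with close copies. Cyp3a11 was at 612, 1167, 1434 and 241 RPKM in DKO livers against 1831, 2018, 1584 and 2110.0 (−1.41, SE 0.44, adjusted p = 0.291). Cyp7a1, the rate-limiting enzyme of bile acid synthesis (chr4:6192758-6202777), was at 17.9, 44.9, 69.1 and 49.9 against 96.8, 82.0, 153 and 89.8 (−1.30, adjusted p = 0.479). It was the 1 non-overlapping gene of 16 in bile acid synthesis (6.25%, beside 1.96% of all genes downward), whose median was −0.19. That median was −0.08 without DKO liver 4, −0.11 without DKO liver 3, −0.07 with quantile normalization and −0.30 with median-of-ratios scaling. Among 32 uptake and efflux transporters 2 were non-overlapping downward and 2 upward (6.25% each, beside 1.96% and 5.62% of all genes). The organic anion carriers Slco1b2 and Slco1a1 lay lower. Slco1b2 was at 272, 309, 296 and 169.7 against 500.5, 562, 574 and 507 (−1.07, SE 0.44, adjusted p = 0.378). Slco1a1 was at 76.2, 255, 189 and 167 against 266, 331, 267 and 328 (−0.91). The lactate carrier Slc16a1 lay higher (0.64) and so did the bile acid exporter subunit Ostb (0.86), and the median of the transporters was −0.15. It was −0.03 and −0.09 without wild-type livers 2 and 1, −0.08 without DKO liver 4 and −0.26 with median-of-ratios scaling.

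General hepatocyte proteins differed little. The list of 34 secreted proteins and transcription factors had a median of −0.10 (−0.005 with quantile normalization) and 2 non-overlapping members. There was 1 upward and 1 downward (2.94% each, beside 5.62% and 1.96% of all genes). Without DKO liver 3 the median was −0.002 and without DKO liver 2 it was −0.18, the other livers giving values between these or, for DKO liver 4, nearer 0. Ahsg, the plasma protein fetuin-A, was at 4825, 4728, 5811 and 5760.0 RPKM against 4445, 3311, 4504 and 4451 (0.34, adjusted p = 0.558). Ppara, the nuclear receptor of fatty acid oxidation (chr15:85566205-85633248), was at 42.9, 58.7, 57.4 and 47.7 against 67.1, 73.2, 72.2 and 91.3 (−0.55, SE 0.20, adjusted p = 0.332). Of 33 genes of fatty acid oxidation and ketogenesis 27 were below 0, with a median of −0.30. By liver they stood at 0.05, −0.15, −0.21 and −0.89, and without DKO liver 4 the median was −0.08. In urea cycle and amino acid catabolism (44 tested, median −0.09, from −0.18 without DKO liver 1 to −0.03 without wild-type liver 1) 5 genes were non-overlapping downward and 2 upward. These were 11.4% and 4.55%, beside 1.96% and 5.62% of all genes. The liver tryptophan dioxygenase Tdo2 was at 409, 633, 532 and 339.6 against 861, 692, 756 and 990.4 (−0.81), and the glutamine carrier Slc38a2 at 27.0, 18.5, 21.6 and 21.2 against 34.8, 31.8, 37.1 and 31.6 (−0.60, SE 0.15, adjusted p = 0.238). Slc38a2 is a gene in which the spread within each group was small beside the gap. Upward were Asl and the urea cycle activator synthase Nags (0.38).

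Genes of sterol synthesis were lower in the DKO group mainly through single livers. Of 24 tested, 22 were below 0 and the median was −0.47. Against the L02 wild-type livers the median was −0.002, and against L03 it was −0.75. DKO liver 1 stood at −1.54 and wild-type liver 3 at 0.95, and without either the median was −0.01 or −0.05, respectively. Squalene epoxidase (Sqle) was at 3.94, 24.5, 54.3 and 82.6 RPKM in DKO livers and 22.9, 47.9, 141 and 41.95 in wild-type livers. Only Stard4, a sterol carrier, and Tm7sf2, a sterol reductase, were non-overlapping (8.33%, beside 1.96% of all genes downward). Stard4 was at 18.2, 43.0, 40.2 and 54.3 against 57.7, 55.5, 84.5 and 102 (−0.98, adjusted p = 0.298). Tm7sf2 overlaps another annotated gene on its strand, so its reads are uncertain (−0.69). In fatty acid synthesis 12 of 25 genes were above 0 and the median was −0.001 (0.39 without DKO liver 1), with DKO liver 1 at −0.86 and the other DKO livers at 0.24 to 0.31. The list had 1 non-overlapping member, upward (4.0%, beside 5.62% of all genes). It was Mlxipl, the glucose-responsive transcription factor ChREBP, at 52.0, 49.0, 33.98 and 34.5 against 31.0, 26.3, 16.7 and 28.9 (0.71, SE 0.21, adjusted p = 0.290).

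Genes of gluconeogenesis, glycolysis and glycogen had a median of 0.27, with 22 of 32 above 0 (19 with median-of-ratios scaling). Without wild-type liver 1 it was 0.18. Besides Igfbp1, the liver phosphofructokinase Pfkl was non-overlapping, at 16.8, 12.4, 11.8 and 10.53 RPKM against 8.49, 10.48, 8.58 and 9.02 (0.44). DKO liver 4 and wild-type liver 2 nearly met in Pfkl. The 2 non-overlapping members made 6.25% of the list, near the 5.62% of all genes upward. Among the 29 genes of lipid uptake and storage Lpl was the non-overlapping one (3.45%, beside 5.62% of all genes upward). The median of these genes was 0.04 (−0.07 with median-of-ratios scaling, and from −0.08 without DKO liver 1 to 0.14 without wild-type liver 1). Mfsd2 (now Mfsd2a), a carrier of lysophospholipids, was among the 12 largest downward differences, at 13.8, 7.01, 5.98 and 9.46 against 14.3, 33.9, 38.3 and 20.0 (−1.42, adjusted p = 0.331). Prei4, a phosphodiesterase of glycerophosphocholine, was at 16.4, 8.80, 11.1 and 7.13 against 51.4, 16.8, 45.3 and 26.2 (−1.53, adjusted p = 0.291). Hectd2, a HECT-domain ubiquitin ligase (chr19:36629269-36695617), was at 0.950, 2.29, 0.862 and 0.795 against 12.8, 5.23, 2.68 and 14.2. Its wild-type values were widely spread (−1.95, SE 0.38, adjusted p = 0.210), and without wild-type liver 3 the adjusted p was 0.0395. Raet1b, of the NKG2D ligand family, also lay lower (−1.28), but it overlaps its near-identical copies and is uncertain.

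Sex-biased genes split the DKO livers. Of 32 tested genes that are higher in male liver, 25 were below 0 and the median was −0.58, and the DKO livers stood at −1.58, 0.25, −0.13 and −1.09. DKO livers 1 and 4 were thus low, while 2 and 3 were near the wild type, whose range was −0.17 to 0.05. Cyp4a12a, a male-biased P450 with a close copy, was at 16.7, 171, 134 and 6.63 RPKM in DKO livers against 114, 199, 121 and 193. Cyp2d9, also male-biased, was at 106, 621, 525 and 42.2 against 463 to 587. Hsd3b5, a male-biased steroid dehydrogenase, was at 3.04, 84.0, 7.12 and 8.59 against 70.9, 27.4, 33.1 and 120.5, so only DKO liver 2 was in the wild-type range. Without DKO liver 1 the list median was −0.31, without DKO liver 4 it was −0.37 and without DKO liver 2 it was −1.01. Female-biased genes stood at 1.22 in DKO liver 4 and between −0.21 and 0.23 in the other DKO livers. Their median over 30 tested was 0.15. It was −0.09 without DKO liver 4, 0.09 and 0.07 without wild-type livers 3 and 4, and 0.29 without DKO liver 1 or 2.

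DKO liver 4 carried the female-biased genes A1bg at 249.7 RPKM and Sult3a1 at 292 RPKM. The other DKO livers were at 2.79 to 5.76 for A1bg and 4.27 to 23.4 for Sult3a1, and the wild-type livers at 1.17 to 4.52 and 1.51 to 7.82. The Y-linked gene Ddx3y was at 11.01 RPKM in DKO liver 4, at 11.9 to 13.5 in the other DKO livers and at 14.4 to 21.9 in the wild-type livers. Cyp2a4, a female-biased steroid hydroxylase with a near-identical copy, showed another split, at 9.64, 122, 97.9 and 122 RPKM in DKO livers against 7.81, 12.8, 15.3 and 12.04. DKO livers 2 to 4 were high and DKO liver 1 was within the wild-type range (2.32, adjusted p = 0.283), and without DKO liver 1 the adjusted p was 3.44e-04 (log2 difference 3.17). These 6 sex-biased genes were chosen after their values were seen.

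**Figure D3:**
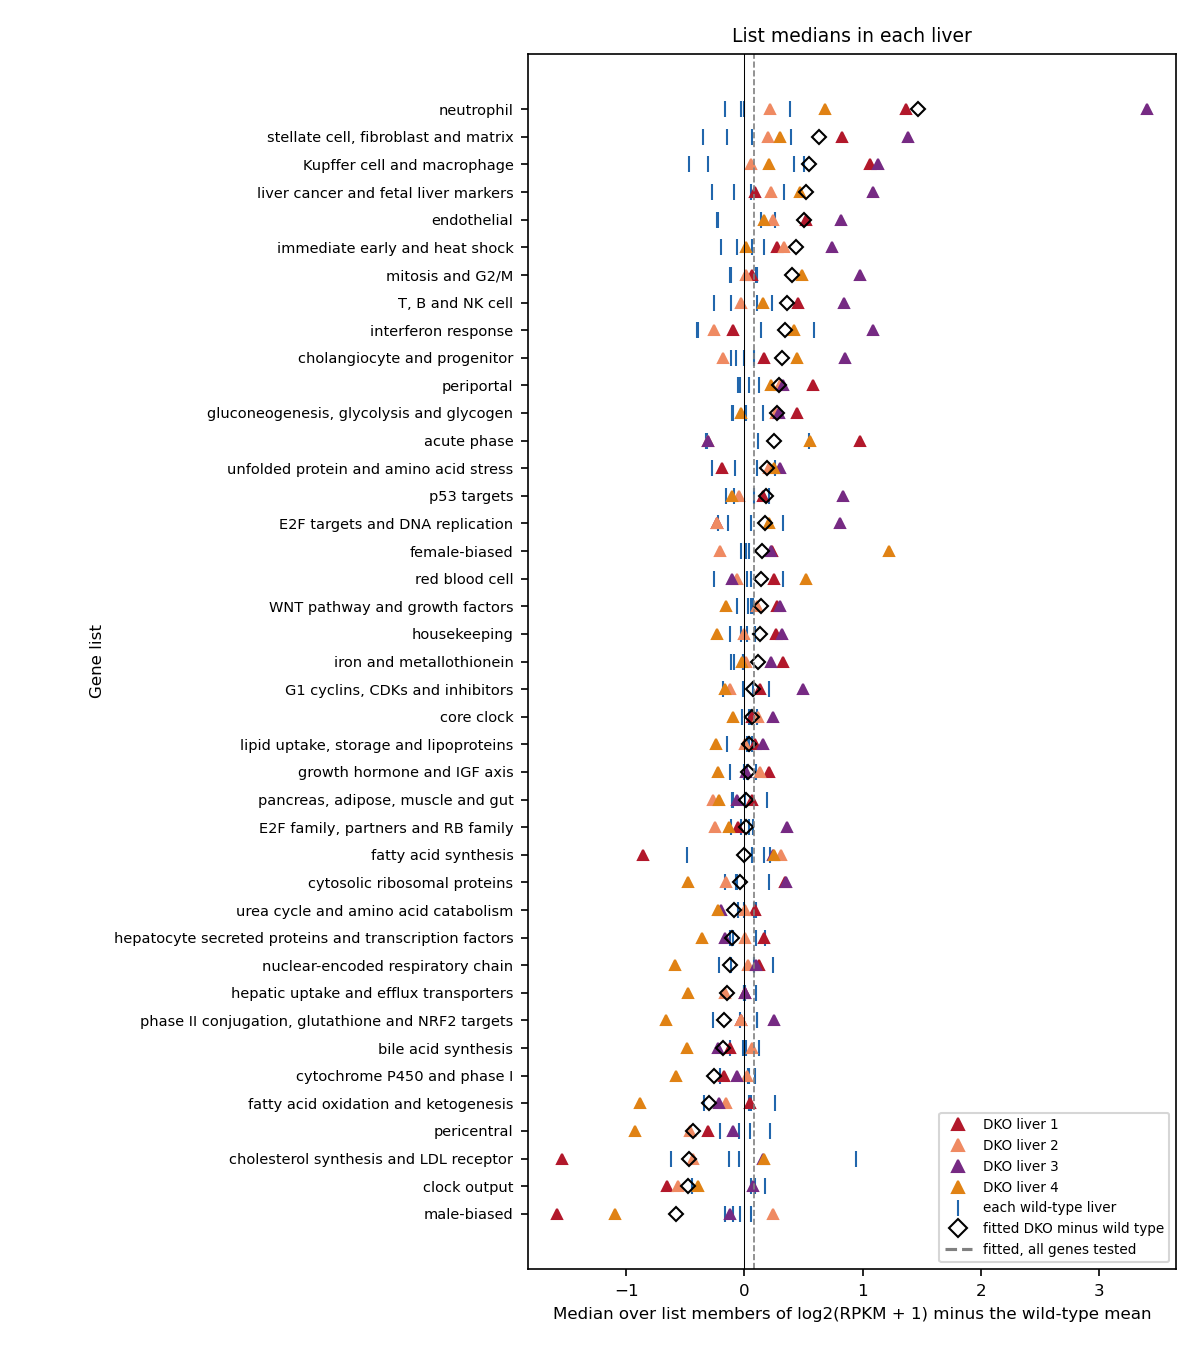
Median over the tested members of each of 41 gene lists of log2(RPKM + 1) minus the wild-type mean, 1 triangle per DKO liver and 1 tick per wild-type liver, with the fitted DKO minus wild-type median as a diamond and that of all genes (0.08) as a dashed line. DKO liver 3 leads most lists of cell division and of other cell types, and DKO livers 1 and 4 lie apart in the male-biased list.

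Clock genes, whose transcripts cycle over the day, also separated the DKO livers. Dbp, a PAR-domain transcription factor driven by the clock (chr7:52960601-52965520), was at 4.28, 3.77, 30.8 and 21.7 RPKM in DKO livers and 68.0, 40.7, 48.2 and 110.0 in wild-type livers. It had the largest downward difference of all genes tested (−2.44, SE 0.75, limma adjusted p = 0.295). DKO livers 1 and 2 were much lower than 3 and 4, and all 4 were below the wild type. Arntl, the clock activator that peaks opposite to Dbp, was at 11.2, 9.95, 1.73 and 1.19 against 1.60, 0.833, 0.840 and 0.484. Again DKO livers 1 and 2 stood apart, and DKO liver 4 was below the highest wild-type liver.

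Nr1d1, the repressor REV-ERB alpha, was at 4.03, 1.86, 7.17 and 11.7 RPKM against 51.3, 13.0, 9.48 and 35.4 (−1.89). Its paralog Nr1d2 (chr14:19036631-19071505) did not overlap, at 6.76, 4.02, 14.6 and 12.2 against 17.3, 20.1, 26.5 and 25.2 (−1.28, SE 0.50, adjusted p = 0.357). The repressors Cry1, at 18.5, 18.8, 9.20 and 3.65 against 1.58 to 5.90, and Nfil3, at 36.3, 28.1, 15.6 and 5.79 against 4.53 to 11.3, were highest in DKO livers 1 and 2. Hlf, a PAR-domain factor related to Dbp, was at 7.65, 9.52, 9.54 and 7.54 against 12.03, 14.3, 10.4 and 15.5 (−0.55). The core clock list, with activators and repressors of opposite phase, had a median of 0.06 (−0.04 with median-of-ratios scaling, and from −0.01 without DKO liver 3 to 0.17 without DKO liver 2). Of its 17 tested genes 1 was non-overlapping downward (5.88%, beside 1.96% of all genes). Clock output genes had a median of −0.48 over 24 tested, and −0.19 against the L02 wild-type livers. By liver they stood at −0.66, −0.56, 0.07 and −0.39 in DKO livers 1 to 4, and at −0.44 in wild-type liver 1. DKO livers 3 and 4 thus lay within the wild-type range. Non-overlapping downward were 3 (12.5%, beside 1.96% of all genes). The sources used here do not give the time of day at which livers were taken.

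**Figure D4:**
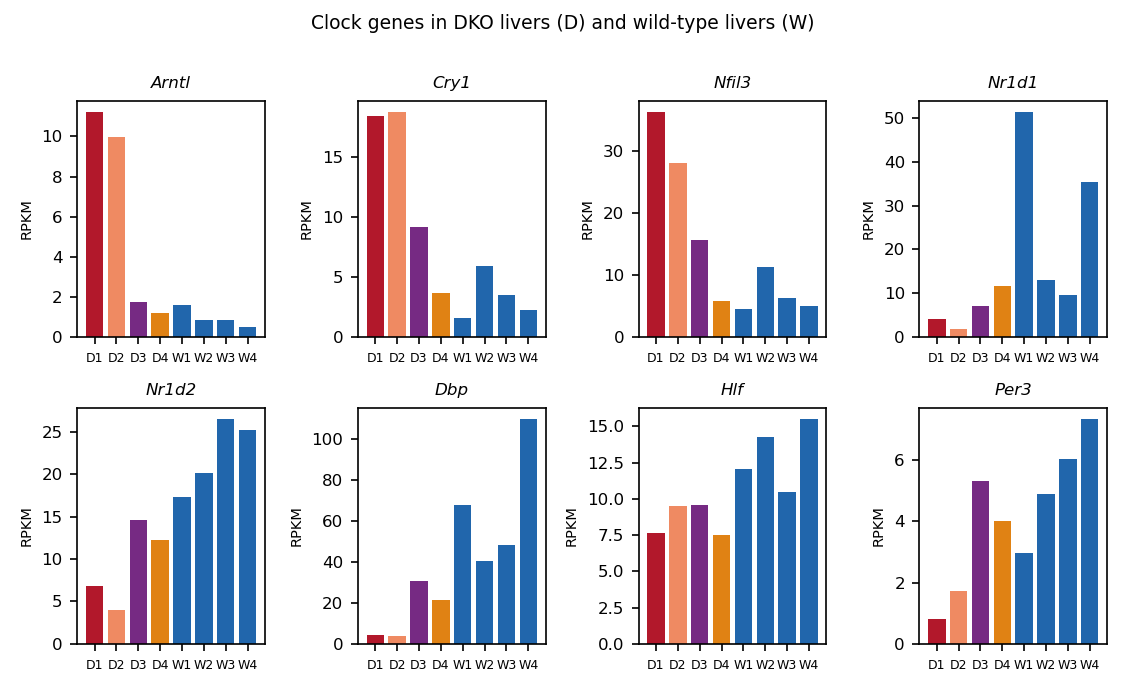
RPKM of 8 clock genes in DKO livers 1 to 4 (D1 to D4) and wild-type livers 1 to 4 (W1 to W4), 1 bar per liver. Arntl, Cry1 and Nfil3 are highest and Dbp is lowest in D1 and D2, while D3 and D4 lie nearer to the wild-type bars.

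Markers of cells other than hepatocytes were mostly higher in DKO livers, and most in DKO liver 3. Summed neutrophil markers (12 genes, none at 0 throughout) were at 46.2, 13.7, 163 and 24.3 RPKM in DKO livers and 8.68, 17.4, 8.95 and 7.31 in wild-type livers. Ngp was at 3.55, 1.87, 26.0 and 3.18 RPKM against 0.112, 0.349, 0.527 and 0.503. Camp, the granule peptide cathelicidin, was at 1.28, 0.856, 11.9 and 0.741 against 0.215, 0, 0.145 and 0. Both were non-overlapping, and DKO liver 3 was far above the other DKO livers. Of the 12 markers, 7 passed the filter of 0.5 RPKM in 4 of the 12 libraries and 5 did not. Camp reached that level in no wild-type liver, so the filter favours genes high in DKO tissue. All 7 tested neutrophil markers were above 0, with a median of 1.47, and 0.84 without DKO liver 3. Both the count and the median are limited by that selection.

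Matrix, stellate and fibroblast genes were above 0 in 38 of 38 tested (37 with median-of-ratios scaling), with a median of 0.63. The median was 0.35 against the L02 wild-type livers, 0.82 against L03 and 0.38 without DKO liver 3. By liver it stood at 0.83, 0.20, 1.38 and 0.30 in the DKO livers, and at 0.39 in wild-type liver 2. Nid1, the basement membrane protein nidogen-1 (chr13:13529957-13604528), was at 5.65, 7.71, 18.5 and 16.7 RPKM against 3.18, 5.46, 4.25 and 3.19, with DKO livers 3 and 4 the highest (1.27, SE 0.37, adjusted p = 0.290). Sparc, a matrix glycoprotein, was at 82.2, 54.1, 127 and 53.9 against 36.7, 47.2, 31.5 and 29.3 (1.04). Mmp14, a membrane-bound matrix metalloproteinase, was at 41.2, 23.3, 30.7 and 28.9 against 18.6, 18.2, 18.7 and 14.5 (0.77, SE 0.19, adjusted p = 0.226). The last 2 non-overlapping members were Acta2 and the laminin chain Lamc1 (0.57). The 5 made 13.2% of the list, beside 5.62% of all genes.

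Kupffer cell and macrophage markers were above 0 in 29 of 30 genes, with a median of 0.55, but none was non-overlapping. Their sums were 1339, 534, 1344 and 779.6 RPKM in DKO livers and 324, 810.1, 853 and 387 in wild-type livers, so DKO livers 2 and 4 lay within the wild-type range. The lectin Clec4f, specific to Kupffer cells, was at 150.5, 60.3, 121 and 99.3 against 28.5, 79.6, 88.9 and 39.96. Lymphocyte markers had a median of 0.36 over 21 tested, 0.12 without DKO liver 3. They stood at 0.455, −0.03, 0.84 and 0.16 in DKO livers 1 to 4, and at 0.23 in wild-type liver 3. DKO livers 2 and 4 were thus within the wild-type range. At low levels 3 members were non-overlapping upward (14.3%, beside 5.62% of all genes). Of 27 markers 6 did not pass the filter on level, which genes high in DKO tissue pass more easily. The share is limited by that selection. Gzma, a granzyme of cytotoxic cells, was at 1.60, 0.454, 1.48 and 0.860 against 0, 0.445, 0.287 and 0.160, and the T-cell receptor subunit gene Cd3g at 1.13, 1.07, 1.27 and 0.949 against 0.490, 0.611, 0.658 and 0.275. The other was Cd7 (0.68). Gzma reached 0.5 RPKM in no wild-type liver, and DKO liver 2 and wild-type liver 2 nearly met in it.

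Endothelial markers had a median of 0.51 over 28 tested, 26 of them above 0, and 0.32 without DKO liver 3. By liver they stood at 0.52, 0.24, 0.82 and 0.16 in DKO livers 1 to 4, and at 0.26 in wild-type liver 2. DKO livers 2 and 4 thus lay within the wild-type range. Gpr182, a sinusoidal endothelial receptor, was at 16.7, 13.0, 23.6 and 11.8 RPKM against 6.65, 10.1, 9.04 and 5.81 (0.93, SE 0.34, adjusted p = 0.332). Vwf, von Willebrand factor, was at 2.56, 0.950, 2.098 and 1.504 against 0.497, 0.947, 0.945 and 0.510, so DKO liver 2 and wild-type liver 2 nearly met. Lyve1 (1.08) and Erg (0.32) were the other non-overlapping members. The 4 made 14.3% of the list, beside 5.62% of all genes upward. Lyve1 was at 17.3 RPKM in DKO liver 3 and at 0.384 to 1.40 in the other livers. Of 17 tested cholangiocyte and progenitor genes 5 were non-overlapping upward (29.4%, beside 5.62% of all genes), and their median was 0.32 (0.11 without DKO liver 3, 0.53 without DKO liver 2). The water channel Aqp1 was at 62.4, 52.7, 50.5 and 55.9 against 31.7, 48.3, 37.95 and 28.8 (0.60). Sox9, Bicc1 (0.88) and Muc1 (0.54) were also among the 5. Summed levels of this list were 252, 209, 533 and 337 RPKM in DKO livers and 189 to 292 in wild-type livers, and their part in the matching results was not tested.

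Immediate early and heat shock genes were above 0 in 29 of 32 tested (25 with median-of-ratios scaling), with a median of 0.44. Of them 5 were non-overlapping, all upward (15.6%, beside 5.62% of all genes). The median was 0.54 against the L02 wild-type livers and 0.28 without DKO liver 3. Fos, the AP-1 subunit, was at 1.34, 0.667, 2.02 and 1.86 RPKM against 0.299, 0.298, 0.442 and 0.604 (0.78, SE 0.19, adjusted p = 0.226). Serpinh1, the collagen chaperone, was at 6.58, 4.57, 12.9 and 4.18 against 3.08, 4.13, 2.31 and 1.43 (1.04), and Ier3, Hsp90ab1 and Dnajb1 differed by 0.54, 0.49 and 0.43. Of 28 genes of the unfolded protein response 2 were non-overlapping upward, which at 7.14% was near the 5.62% of all genes. They were the sensor kinase Ern1, at 19.2, 22.6, 15.1 and 18.5 against 9.51, 14.2, 12.4 and 11.7 (0.62), and the serine synthesis gene Phgdh (0.40).

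Interferon-response genes were above 0 in 29 of 34 tested, with a median of 0.35, and none was non-overlapping. DKO liver 3 stood at 1.09 and wild-type liver 3 at 0.59, and the median was 0.001 without DKO liver 3 and 0.15 without wild-type liver 4. Isg15, a ubiquitin-like interferon-induced protein, was at 6.23, 6.95, 54.6 and 13.5 RPKM against 8.55, 9.33, 20.3 and 5.40. Acute phase genes were high in DKO livers 1 and 4 (0.98 and 0.55) and in wild-type liver 3 (0.55), and low in DKO livers 2 and 3 (−0.31 each), with none of 30 non-overlapping. Hemopexin (Hpx), a heme-binding plasma protein, was at 14390.0, 6466, 9898 and 18660.0 against 4544, 18130.0, 10830.0 and 4288. Respiratory chain genes (42 tested, median −0.12) and ribosomal protein genes (41 tested, median −0.03) had no non-overlapping member, and DKO liver 4 was the lowest of the 8 in both, at −0.59 and −0.48. Without DKO liver 4 both medians changed sign, to 0.08 and 0.12, and without wild-type liver 1 they were −0.03 and 0.05. In the WNT and growth factor list 3 of 30 were non-overlapping upward. The WNT receptor Fzd7 was at 6.43, 6.63, 6.62 and 5.61 against 4.09, 4.24, 3.50 and 3.78, with narrow spread in both groups (0.58, SE 0.17, adjusted p = 0.276). The FGF19 and FGF15 receptor Fgfr4 was at 34.8, 27.0, 25.4 and 25.8 against 20.0, 21.3, 17.8 and 21.3 (0.46), and beta-catenin (Ctnnb1) differed by 0.26. Housekeeping genes, which served as a reference, had a median of 0.13 over 18 tested (0.02 with median-of-ratios scaling), and red blood cell genes 0.14 over 8. Without 1 liver these ranged from 0.04 (DKO liver 3) to 0.26 (DKO liver 2) and from 0.06 (wild-type liver 4) to 0.28 (wild-type liver 3).

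DKO livers differed more among themselves than wild-type livers did. The root mean square log2 difference between 2 libraries was 0.508 to 0.650 in the 6 DKO pairs (median 0.575) and 0.356 to 0.536 in the 6 wild-type pairs (median 0.424). Between a DKO and a wild-type liver it was 0.396 to 0.717 over 16 pairs (median 0.562). That median was close to the one between DKO livers, and the highest value was above theirs. The SD was higher in the DKO group for 66.6% of genes, with a median of 0.28 against 0.22 on the log2 scale.

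Genes in which 1 DKO liver lay more than 1 log2 unit beyond the other 7 livers, named here after their values were seen, numbered 92 above and 0 below for DKO liver 3. They numbered 20 and 24 for DKO liver 1, 5 and 4 for DKO liver 2, and 13 and 54 for DKO liver 4. DKO liver 1 had the leptin receptor gene Lepr at 50.4 RPKM (others 0.537 to 3.52) and Thrsp, a lipogenic gene, at 48.9 (others 323 to 1363). DKO liver 3 had Gpc3, the oncofetal glypican-3, at 17.0 (others 0.128 to 1.14) and Lyve1, a hyaluronan receptor of endothelium, at 17.3 (others 0.384 to 1.40). DKO liver 4 had the iron hormone gene Hamp at 444 (others 2093 to 4522) and the aryl hydrocarbon P450 Cyp1a2 at 54.9 (others 212 to 434). DKO liver 2 led in E2f8, at 20.8 (others 1.66 to 8.07).

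**Figure D5:**
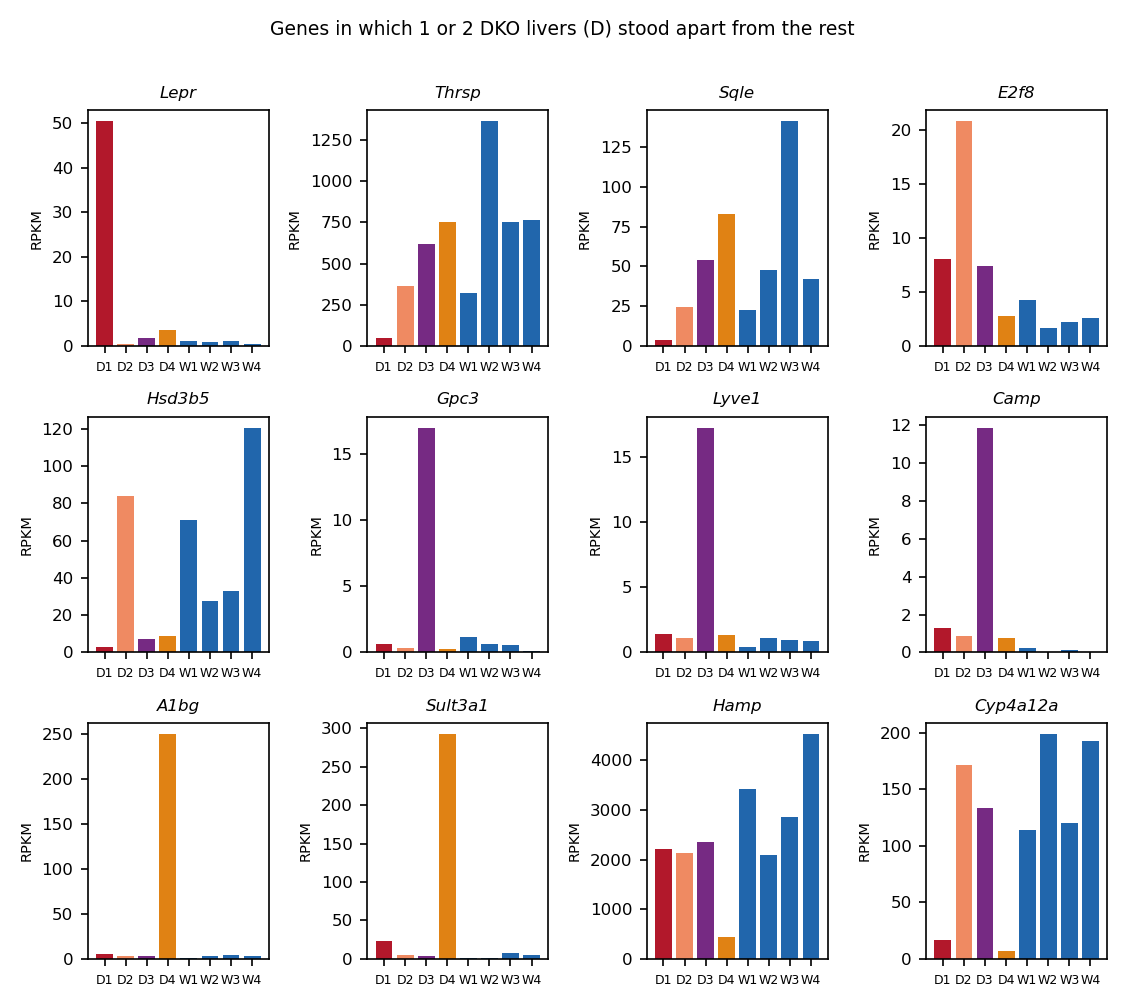
RPKM of 12 genes in DKO livers 1 to 4 (D1 to D4) and wild-type livers 1 to 4 (W1 to W4), 1 bar per liver, chosen after their values were seen. Each DKO liver has its own extremes, such as Lepr in D1 (50.4), E2f8 in D2 (20.8), Gpc3 in D3 (17.0) and A1bg in D4 (249.7).

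The E2F letters were also set against the differences of all genes. A RefSeq promoter was matched for 9122 of the 11351 genes tested (80.4%). The 412 with the letters had a median log2 difference of 0.09, with 6.31% non-overlapping upward, and the 8710 without had 0.07 and 5.73%. Downward the shares were 0.971% with and 1.96% without. Among the E2F targets and replication genes, 18 of 42 with a promoter had the letters, with a median of 0.33 against 0.16 without. Among the mitosis genes 2 of 31 had them (0.40 against 0.35). These differences were not tested. For the E-box CACGTG, a palindrome bound by clock activators and present in 7.15% of windows, the medians were 0.06 with and 0.08 without. For the D-box TTATGTAA, bound by Dbp and Nfil3 and searched on both strands, 68 genes had the letters, and their median was −0.02 against 0.075 without. A match describes letters in this window and not a bound site.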

How the data were processed

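The authors deposited 1 table per library with RPKM for 21247 RefSeq transcripts. BWA and the build mm9 are named in the submitters' processing notes; the counting tool, and whether coordinates start at 0 or 1, were not given in the sources used here. Reads were recovered from the RPKM steps (tolerance 0.05 of a read). Without molecular identifiers, the depth given covers counting error only. The longest transcript was kept for each of 19012 symbols. Tested were 11351 genes that reached 0.5 RPKM in 4 or more of the 12 libraries, so a low gene could pass through the tumors or 1 liver group. On the log2(RPKM + 1) scale, limma 3.58.1 (R 4.3.3) fitted a mean per group with trend and robust shrinkage, two-sided, adjusted by Benjamini-Hochberg at 0.05; the offset of 1 understates differences of low genes. E2f7 and E2f8 were compared by exact permutation over the 8 livers. In simulated data of this size, with independent genes, 65.4% of planted 2-fold and 93.2% of 4-fold changes were called, with a mean of 6.6 false calls. The simulated noise was normal with the same SD in every group, whereas the real SD was higher in the DKO group for 66.6% of genes. These shares therefore cannot tell how many real changes would be called.

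The comparison, its 41 gene lists (1205 entries, 1189 matched) and its tests were chosen with earlier results of these data known. Named are E2f7 and E2f8, the 12 largest non-overlapping differences per direction with a group mean of at least 5 RPKM, and from each list up to 3 non-overlapping members by p, or the 2 of highest mean. Others are added to describe a list or a liver and were chosen after their values were seen. A few genes are not reported here. Alternatives covered scaling, offset, filter, shrinkage, libraries fitted, tag, replicate block, voom and transcript choice. Other software was Python 3.11.15, numpy 2.4.6, pandas 2.3.3 and, for plots, matplotlib 3.10.9.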

Additional observations from a re-analysis of the deposited data

Results flagged for a closer look

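Single livers stood apart within their group of 4, with a gap to the nearest library above Dixon's 95% critical share of the group's range. Of 242 groups examined, chance alone flags about 1 in 20, and several genes had been named for such values. In DKO liver 1 these were Slc4a9 (15.9 RPKM), Fgfr4 (34.8) and Lepr (50.4). In DKO liver 2 they were Hectd2 (2.29) and Hsd3b5 (84.0). In DKO liver 3 they were Ngp (26.0), Kifc3 (11.7), Camp (11.9), Gpc3 (17.0), Lyve1 (17.3), Bicc1 (9.64), Bub1b (1.44), Isg15 (54.6) and Lamc1 (5.004). In DKO liver 4 they were A1bg (249.7), Sult3a1 (292) and, low, Hamp (444). Wild-type liver 1 was low in Ctnnb1 (60.8). Wild-type liver 2 was low in Ahsg (3311) and high in summed neutrophil markers (17.4). Wild-type liver 3 was high in Cux2 (0.790) and Iigp1 (204). Wild-type liver 4 was low in Gadd45b (0.389) and Mmp14 (14.5) and high in Tfdp2 (6.98).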

How the results depend on the processing

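The call of 0 genes became 1 with median-of-ratios scaling, 1 with the 8 livers alone (Tubb2a) and 0 to 2 when 1 library was left out. E2f7 was no longer past 0.05 with median-of-ratios scaling (0.15), quantile normalization (0.11) or only L02 livers (0.19, where p cannot go below 0.0667), nor in 5 fits without 1 library (0.125 to 0.195 over all). With the replicate block it was 0.17, where p cannot go below 0.125. The replicate numbers do not mark shared animals, same-numbered deviations correlated at 0.227, −0.127, 0.030 and −0.126, and the block called 0 genes. E2f8 ranged from 0.89 to 1.72 without 1 library, past 0.05 without DKO liver 4. Non-overlapping genes numbered 1619 (14.3% of genes) with only L02 livers and 946 to 1806 (8.33 to 15.9%) without 1 liver, beside 861 (7.59%) with all 8. Non-overlap is easier to reach with fewer livers, so these counts cannot be compared with the 861. At an unadjusted p below 0.05, lower genes numbered 1134 with median-of-ratios scaling, 1000 with quantile normalization, 111 with L02 livers, 127 with the tag as covariate and 178 to 517 without 1 library. Higher genes numbered 423 with L02 livers, 472 with the tag and 540 to 1251 without 1 library. List medians that moved by more than 1 SD between replicates were mitosis (0.81 with offset 0.1, 0.95 with voom), lymphocytes (0.80 with voom), periportal (0.18 with median-of-ratios scaling, 0.19 to 0.50 without 1 library), clock output (−0.19 with L02 livers or the tag) and other tissues (−0.45, stricter filter). Many more moved by over 1.5 times or changed sign. Of 41 list medians, 12 to 26 did so when 1 of the 8 livers was left out, the most without DKO liver 3, along with 25 under median-of-ratios scaling, 21 under quantile normalization and 15 with only L02 livers. The cholesterol synthesis median of −0.47 became −0.002 with only L02 livers, −0.01 without DKO liver 1 and −0.05 without wild-type liver 3, and that of neutrophil genes went from 1.47 to 0.84 without DKO liver 3. Without DKO liver 3 the differences of 4 genes reversed, and without 1 library they ranged from −0.160 to 1.125 for Gpc3, −0.085 to 0.667 for Mcm6, −0.043 to 0.900 for Mcm5 and −0.195 to 0.786 for Isg15. The cause was not tested. E2f7 and E2f8 were not fitted with the tag as a covariate.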
